A study of Arabidopsis thaliana with 14 samples.

Results

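The chalazal seed coat was compared with the general seed coat of Arabidopsis thaliana seeds at the bending cotyledon stage. The comparison used 4 of the 14 arrays of the study, 2 of the chalazal seed coat and 2 of the general seed coat, taken by their labels, and all 22746 probe sets that were not controls. The study profiled 6 compartments cut out of sectioned seeds (the embryo proper, 3 regions of the endosperm named micropylar, peripheral and chalazal, and both seed coat regions) together with whole seeds, on Affymetrix ATH1 arrays, with 2 biological replicates in each of 7 groups. Both seed coat groups came from Ws-0 plants 38 to 46 days old kept in continuous light, from seeds whose bent cotyledons were 100 to 140 µm long. Fixed siliques were embedded in paraffin, the tissue was cut from sections with a laser, and each seed coat array was made from 5 to 6 ng of RNA after amplification. No mutant, transgene or treatment was involved, and the labels do not state how many seeds were pooled for an array.

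The seed coat develops from the integuments, the maternal tissue around the ovule. Its outer epidermis makes mucilage, its innermost layer makes proanthocyanidins, and several inner layers die and are crushed as the seed grows. The chalaza is the region where the vascular strand of the funiculus ends, and sugars and amino acids unloaded there pass through the coat and the apoplast to the endosperm and embryo, since no symplastic path joins mother and offspring.

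Values are linear signal intensities, which the authors had scaled so that every array has the same trimmed mean. They are compared only between arrays for the same probe set. Differences are chalazal minus general seed coat on the log2(intensity + 32) scale, which understates the change of dim genes, with the standard error (SE) and the Benjamini-Hochberg adjusted p of a limma fit over all 14 arrays. Testing was limited to probe sets that exceeded the array median on both arrays of 1 group or more. Calls of higher or lower needed a log2 difference of 1 or more in size and an adjusted p below 0.05. With 2 arrays in a group the number of arrays limits the precision. A lower intensity cannot tell fewer cells of a type in the captured area apart from less RNA per cell.

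The arrays of the same region resembled each other more than those of different regions, with a correlation over tested probe sets of 0.915 between the chalazal arrays and 0.898 between the general arrays, against 0.711 to 0.742 between the regions. The summed intensity of the 6 seed coat markers with a probe set was 32170 and 39260 on the chalazal arrays and 45570 and 50740 on the general arrays. It lay between 745 and 4737 on the arrays of the embryo and endosperm compartments. ARA12, AT2G22900, DFR and BAN each read higher on all seed coat arrays than on any of those arrays. INO did not, with 31.9 and 51.8 on the chalazal arrays against 72.2 and 141 in the chalazal endosperm. AT3G50990 read 171 and 117 on the general arrays, near its 164 and 108 in the chalazal endosperm. The 3′ to 5′ ratio of the GAPDH control probe sets, a measure of how far cDNA was extended, was 3.39 and 4 on the chalazal arrays and 5.25 and 5.13 on the general arrays. For ubiquitin it was 5.90 and 5.46 on the chalazal arrays and 6.52 and 6.56 on the general arrays, and for actin it ran the other way, 9.99 and 11 on the chalazal arrays against 5.92 and 7.69 on the general arrays. A spiked Cre hybridisation control read 170994 and 221455 on the chalazal arrays and 402019 and 320860 on the general arrays after the authors' scaling. The part of these differences in the results was not tested. No genes of the phloem and xylem marker list had a probe set with a single named gene, so the vascular content of the chalazal samples was not checked here.

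The regions differed widely. Of 14765 probe sets tested, 1218 were called higher in the chalazal seed coat (8.25%) and 1207 lower (8.17%), so that 16.4% were called in either direction. The median log2 difference over all tested probe sets was -0.02. The calls in the higher direction held 616 distinct named genes and those in the lower direction 620. On the log2(intensity + 32) scale, large differences were more common on the chalazal side. On that scale 314 of the higher calls reached 8-fold and 65 reached 32-fold. Of the lower calls, 162 reached 8-fold and 5 reached 32-fold. In the intensities themselves the fold changes of dim genes were larger, and these were not counted. The arrays of both groups did not overlap in any called probe set, which was also true of 57.4% of all tested probe sets. Without chalazal array 1 the counts were 706 higher and 792 lower, and without general array 1 they were 945 higher and 745 lower.

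**Figure D1:**
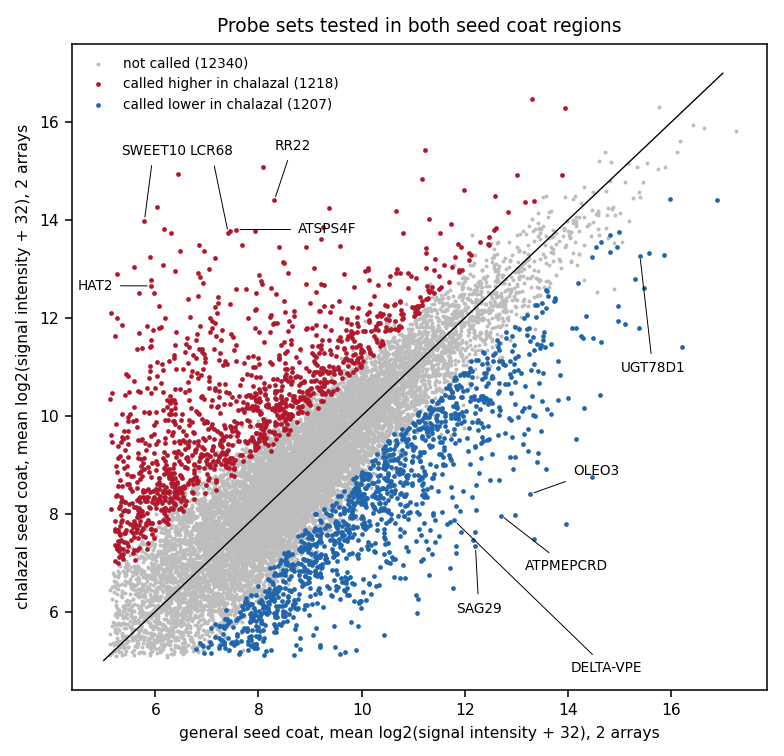
Mean log2(signal intensity + 32) of the 2 chalazal seed coat arrays (vertical axis) against that of the 2 general seed coat arrays (horizontal axis), 1 point for each of 14765 tested probe sets, with the line of equal level. The 1218 probe sets called higher (red) reach farther from the line than the 1207 called lower (blue), and SWEET10 and HAT2 lie near the low end of the general seed coat axis and high on the chalazal axis.

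Single genes of sugar transport stood at opposite ends of the comparison. SWEET10, a member of the SWEET family of sugar transporters, read 15937 and 16368 on the chalazal arrays, against 19.9 and 26.8 on the general arrays. It lay below the array median on both general arrays and was bright on both chalazal arrays, with a log2 difference of 8.19 (SE 0.54, adjusted p = 1.58e-07). SWEET10 also lay low in every endosperm region and in the embryo, with means of 58.9 in the chalazal endosperm and 5.02 in the embryo proper. ATSPS4F, a sucrose-phosphate synthase that makes sucrose phosphate for sucrose synthesis, read 12891 and 15831 on the chalazal arrays, against 41.9 and 454 on the general arrays (log2 difference 6.24, SE 0.69, adjusted p = 9.75e-06). The general arrays differed from each other, and both lay far below the chalazal arrays.

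SAG29, also known as SWEET15, had the opposite pattern. This sucrose transporter of the seed coat and endosperm read 79.9 and 199 on the chalazal arrays, against 5625 and 3911 on the general arrays, a log2 difference of -4.88 (SE 0.56, adjusted p = 1.42e-05). Its mean was 3777 in the peripheral endosperm, 449 in the micropylar endosperm, 55.1 in the chalazal endosperm and 27.1 in the embryo proper. Both chalazal tissues were low, and so was the embryo proper. TMT1, which carries hexoses into the vacuole, read 477 and 706 on the chalazal arrays and 2492 and 2131 on the general arrays (log2 difference -1.93, adjusted p = 0.0128). Its call was lost without chalazal array 1 (adjusted p = 0.113), without general array 1 (0.0829) and without general array 2 (0.0507). Among the 10 tested genes of sugar transport and cleavage, SWEET10 was the 1 called higher, SAG29 and TMT1 were the 2 called lower, and 7 were not called. SWEET11, a sucrose efflux transporter, was among these, with 1003 and 1050 on the chalazal arrays and 548 and 454 on the general arrays (log2 difference 1.00, adjusted p = 0.136). The list's median log2 difference was -0.93, and with a pseudocount of 100 the lower count was 4. Among all tested probe sets 8.25% were called higher and 8.17% lower. With so few members the list counts show no direction for sugar transport genes.

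The 15 named genes with the largest higher differences were led by AT3G10590, which read 26365 and 37626 on the chalazal arrays and 146 and 10.5 on the general arrays (log2 difference 8.50, SE 0.57, adjusted p = 1.58e-07). Neither the files nor the RefSeq table gives this locus a symbol. Its mean in the chalazal endosperm was 4017, and it was at most 7.11 in the means of the embryo and the other endosperm regions. HAT2, an auxin-induced homeodomain-leucine zipper transcription factor, read 6115 and 6733 on the chalazal arrays and 58.6 and 8.36 on the general arrays (log2 difference 6.74, SE 0.50, adjusted p = 2.45e-07). The other 12 besides SWEET10 were loci without a symbol, with log2 differences between 6.34 (AT5G24580) and 7.64 (AT5G10580 and AT4G29640). Every 1 of the 15 had its highest mean in the chalazal seed coat among the 6 compartments.

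Of the 15 named genes with the largest lower differences, AT1G12010 came first, with 266 and 134 on the chalazal arrays and 19449 and 12941 on the general arrays (log2 difference -6.16, SE 0.60, adjusted p = 2.96e-06). AT1G62070, a further locus without a symbol, read 1717 and 4169 on the chalazal arrays and 90745 and 62635 on the general arrays (log2 difference -4.80, adjusted p = 0.000513). Its means in the embryo and endosperm compartments were at most 4296. Besides SAG29, the genes with a symbol in this set were OLEO3 and ATPMEPCRD, which are described with their groups. The others had log2 differences between -5.86 (AT4G36700) and -4.50 (AT1G47540).

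**Figure D2:**
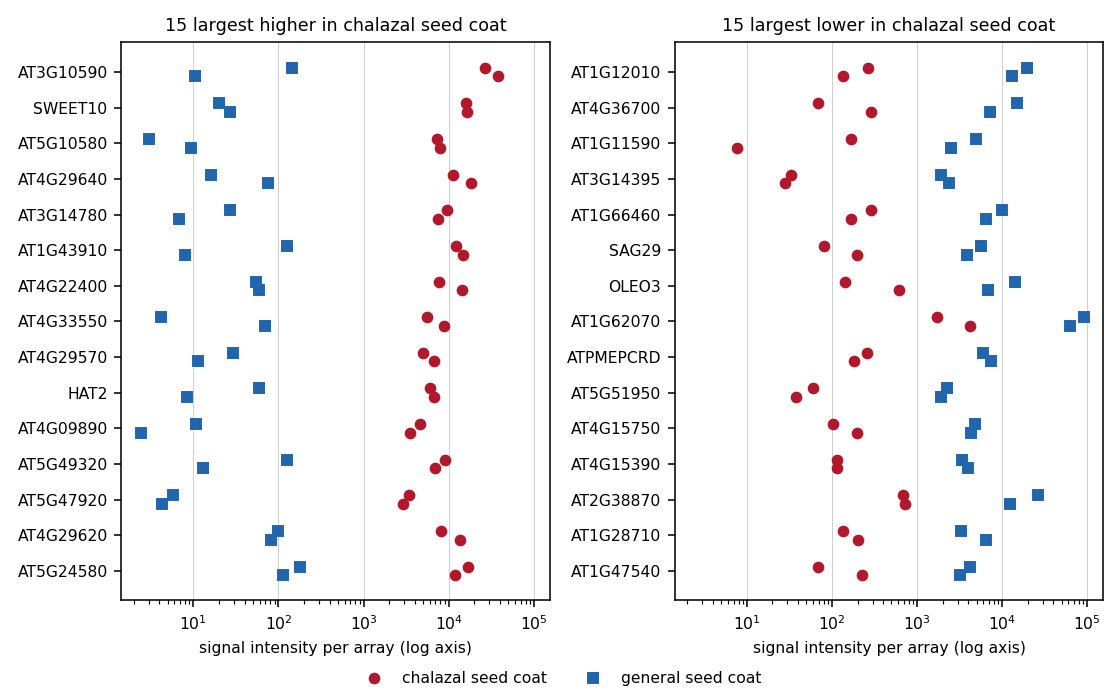
Signal intensity on each array (log axis) of the 15 named genes with the largest higher (left panel) and the largest lower (right panel) differences, with chalazal seed coat arrays as red circles and general seed coat arrays as blue squares. In every row the arrays of 1 region lie apart from those of the other, and for the higher genes the general seed coat arrays reach at most 177.

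Of the lists of transcription factor families, the homeobox, bHLH, bZIP and MADS box lists held called members. With all arrays in the fit, these were all higher in the chalazal region. All tested probe sets were called at 8.25% higher and 8.17% lower, and the bZIP list, with 1 of 11, lay near that share. The MYB (1 tested), WRKY (4), NAC (1) and combined TCP, DOF, GATA, LBD, SPL and YABBY (3) lists had 0 called in limma, with 1 higher (NAC) and 1 lower (WRKY) at an unadjusted p under 0.05. Both tested homeobox genes rose: beside HAT2, PHV, an HD-ZIP III factor of organ polarity and vascular patterning, read 192 and 354 on the chalazal arrays and 16.6 and 9.73 on the general arrays (log2 difference 2.71, adjusted p = 0.0016). PHV was brighter in the peripheral endosperm, with a mean of 822. Among 11 bHLH genes 4 were called higher and 0 lower in limma (5 and 1 at an unadjusted p under 0.05), with a list median of 0.97. LHW, which acts in vascular development of the root, read 2122 and 1143 on the chalazal arrays and 150 and 185 on the general arrays (log2 difference 3.00, adjusted p = 0.00067). ALC, which acts in fruit opening, BIM1, a partner of a brassinosteroid-response factor, and bHLH104, a factor of iron responses, had log2 differences of 2.53, 1.69 and 1.29. These last calls were lost when single arrays were left out: without chalazal array 1 the adjusted p was 0.0658 for ALC, 0.067 for BIM1 and 0.107 for bHLH104, which left 1 bHLH gene called. Without general array 2, ALC (adjusted p = 0.115) and BIM1 (0.078) were lost, without chalazal array 2 BIM1 (0.0728), and without general array 1 bHLH104 (0.107).

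RR22 is a response regulator of the cytokinin phosphorelay family. It read 18993 and 24542 on the chalazal arrays and 304 and 266 on the general arrays, a log2 difference of 6.09 (SE 0.47, adjusted p = 2.81e-07). Both chalazal arrays were far above both general arrays, and the mean in the chalazal endosperm was 1410, against 34.8 in the embryo proper. Among 11 bZIP genes, bZIP44 alone was called, a share close to the 8.25% called higher among all tested probe sets, with 19699 and 31458 on the chalazal arrays and 3392 and 4747 on the general arrays (log2 difference 2.62, adjusted p = 2.33e-05). The 8 tested MADS box genes held AGL18 and AGL16 as higher and 0 as lower in limma (2 lower at an unadjusted p under 0.05, and 1 called lower without chalazal array 1). AGL18, a repressor of flowering, read 10775 and 9757 on the chalazal arrays and 2377 and 2406 on the general arrays (log2 difference 2.09, SE 0.32, adjusted p = 0.000236). AGL16 had a log2 difference of 2.15 and was lost without chalazal array 1 (adjusted p = 0.0595) or general array 2 (0.121).

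Genes of auxin handling lay mostly above 0, with 1 of 8 called higher, 0 lower in limma (3 and 0 at an unadjusted p under 0.05) and a list median of 1.06. Of all tested probe sets 8.25% were called higher, and with so few members 1 call is near that share. The higher count was 2 with a pseudocount of 1, and 0 with a filter on the 2 seed coat groups only. GH3.3, which joins auxin to amino acids, read 126 and 296 on the chalazal arrays and 15.4 and 8.86 on the general arrays (log2 difference 2.37, adjusted p = 0.00493), and its call was lost without chalazal array 2 (adjusted p = 0.0709). UGT84B1, a glucosyltransferase that forms the glucose ester of auxin, read 2305 and 2408 on the chalazal arrays and 113 and 363 on the general arrays (log2 difference 3.32, SE 0.52, adjusted p = 0.000273). Its mean in the chalazal endosperm, the tissue next to the chalazal seed coat, was 23836. Whether chalazal endosperm RNA contributed to the seed coat samples was not tested. The gibberellin receptor GID1A was lower in the chalazal region, with 2555 and 2531 on the chalazal arrays and 6942 and 8407 on the general arrays (log2 difference -1.58, adjusted p = 0.024), a call that was lost without any 1 of the 4 arrays (adjusted p between 0.0731 and 0.133).

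Single flavonoid genes were called in opposite directions. BAN, the anthocyanidin reductase that commits the pathway to proanthocyanidins, read 2617 and 2259 on the chalazal arrays and 766 and 538 on the general arrays (log2 difference 1.87, SE 0.46, adjusted p = 0.0082). Both chalazal arrays were above both general arrays, and the call was lost without chalazal array 1 (adjusted p = 0.063), without general array 2 (0.0655) and with a pseudocount of 1 (0.0959). DFR, the reductase upstream of BAN, gave 6705 and 6449 on the chalazal arrays and 2897 and 2221 on the general arrays and was not called (log2 difference 1.36, adjusted p = 0.0578). UGT78D1, which adds rhamnose to flavonols, fell: it read 8626 and 11260 on the chalazal arrays and 34904 and 53056 on the general arrays (log2 difference -2.12, SE 0.36, adjusted p = 0.000544). Of the 6 tested flavonoid genes, BAN was called higher, UGT78D1 lower and 4 were not called. The higher count was 2 under several other settings, among them a pseudocount of 100 and quantile normalization. Over all tested probe sets the shares were 8.25% higher and 8.17% lower, so these few calls show no direction for the flavonoid genes. UGT73B1, a flavonoid glucosyltransferase outside this list, was called lower and read 920 and 1246 on the chalazal arrays and 8279 and 9334 on the general arrays (SE 0.48, adjusted p = 0.00035), and both its general arrays stood above all other compartments' means.

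Genes of the mucilage list went both ways, with 2 of 8 called higher, 3 called lower and a list median of -1.02. Both counts lay above the shares over all tested probe sets, 8.25% higher and 8.17% lower, in a list of few members. The 3 lower members were AT2G22900, AT5G49180 and AT5G04160, with log2 differences of -1.81, -2.35 and -1.72. AT2G22900 read 2605 and 4263 on the chalazal arrays and 10397 and 13290 on the general arrays (adjusted p = 0.00181). AT3G50990, which RefSeq gives as PER36, encodes a peroxidase that loosens the outer wall of mucilage cells. It ran against these, at 4438 and 5487 on the chalazal arrays and 171 and 117 on the general arrays (log2 difference 4.84, SE 0.52, adjusted p = 8.47e-06). AT1G56100 was the other higher member, with a log2 difference of 2.15, and lost its call without chalazal array 1 (adjusted p = 0.0735) and general array 1 (0.0519). ARA12, a subtilase needed for mucilage release, gave 15775 and 20752 on the chalazal arrays and 31182 and 34456 on the general arrays and was not called (log2 difference -0.86, adjusted p = 0.072).

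Of the vacuolar processing enzymes, proteases that mature seed proteins and take part in programmed cell death, BETA-VPE was called higher and DELTA-VPE lower. DELTA-VPE, which acts in the death of inner seed coat layers, read 142 and 278 on the chalazal arrays and 3782 and 3264 on the general arrays (log2 difference -3.93, SE 0.38, adjusted p = 2.96e-06). BETA-VPE, the enzyme of storage protein processing, read 3697 and 5056 on the chalazal arrays and 1220 and 926 on the general arrays (log2 difference 1.99, SE 0.34, adjusted p = 0.000494). Its means in the embryo and endosperm compartments ran from 3184 to 5569, all above its general seed coat mean of 1073. For each gene the arrays of both regions lay far apart, in opposite directions. GAMMA-VPE, with a log2 difference of 0.64 (adjusted p = 0.131), and ALPHA-VPE, with -0.94 (adjusted p = 0.144), were not called. Over the 7 tested genes of vacuolar processing and cell death, 1 was called higher and 2 lower, the other lower gene being the carboxypeptidase-like scpl48 (log2 difference -1.99, adjusted p = 0.000907). The higher count was 2 with a pseudocount of 100 and with only the 4 seed coat arrays in the fit. Beside shares of 8.25% higher and 8.17% lower over all tested probe sets, so few members show no direction for this list.

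Subtilisin-like and serine carboxypeptidase-like proteases had 2 of 20 tested members called higher and 6 lower, with a median log2 difference of -1.17. The higher count lay near the 8.25% called higher among all tested probe sets. With all arrays in the fit, the lower count lay above the 8.17% called lower. The higher ones were SBT4.13 and scpl31. SBT4.13 read 3102 and 4009 on the chalazal arrays and 85.8 and 126 on the general arrays (log2 difference 4.70, SE 0.54, adjusted p = 1.41e-05), and its mean in the chalazal endosperm was 38854. Scpl31 read 9781 and 1673 on the chalazal arrays and 11.6 and 88.4 on the general arrays (log2 difference 5.82, SE 0.70, adjusted p = 2.26e-05). The chalazal arrays differed several-fold in scpl31, and its means in the chalazal endosperm (22.1) and the embryo proper (11.3) were low. Among the lower ones scpl20 differed most, with 248 and 230 on the chalazal arrays and 4245 and 5299 on the general arrays (log2 difference -4.14, adjusted p = 2.11e-05). Scpl26 had a log2 difference of -2.55 and lost its call without chalazal array 1 (adjusted p = 0.0537) and general array 1 (0.0529). The count of lower members was 3 without chalazal array 2 and 2 without general array 1.

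Of the pectin methylesterases, which change the stiffness of the cell wall by removing methyl groups from pectin, PME61 was called higher and ATPMEPCRD lower. PME61 read 2188 and 3128 on the chalazal arrays and 30.4 and 182 on the general arrays (log2 difference 4.52, SE 0.70, adjusted p = 0.00024). ATPMEPCRD read 257 and 183 on the chalazal arrays and 5909 and 7474 on the general arrays (log2 difference -4.74, SE 0.63, adjusted p = 5.57e-05). Each was low on both arrays of 1 region and high on both of the other, and both had their highest mean in the region where they were called higher. Of the 4 tested pectin enzymes these were the 2 called, too few to show a direction for the list. Among all tested probe sets 8.25% were called higher and 8.17% lower. The single higher calls of the lists that follow, TBL41 and EXPA9, lay near or below that higher share. TBL41, of a family whose studied members acetylate wall polysaccharides, was the 1 called of 20 genes of cellulose and matrix polysaccharide synthesis, with 547 and 647 on the chalazal arrays and 35.6 and 15.2 on the general arrays (log2 difference 3.47, adjusted p = 0.000228). That list's median was -0.70, with 4 lower at an unadjusted p under 0.05 and up to 2 called lower when 1 array was left out, chalazal array 2. EXPA9 was the 1 called of 10 expansins and xyloglucan enzymes (log2 difference 2.17, adjusted p = 0.0335, lost without chalazal array 1 at 0.0774, chalazal array 2 at 0.182 and general array 2 at 0.303).

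Among 22 UDP-glycosyltransferases 2 were called higher and 4 lower, among 10 cytochrome P450 genes 3 and 3, among 10 beta-glucosidases 1 and 2, and among 8 glutathione transferases 1 and 2. All tested probe sets were called at 8.25% higher and 8.17% lower, and with so few members these counts show no direction for these families of specialised metabolism. Without chalazal array 1 or general array 1 the higher glycosyltransferases were 1, and without general array 2 the lower beta-glucosidases were 1. CYP78A9, a P450 known from fruit and seed size, read 2068 and 925 on the chalazal arrays and 45.0 and 15.2 on the general arrays (log2 difference 4.56, SE 0.59, adjusted p = 4.32e-05). CYP718 read 1419 and 750 on the chalazal arrays and 62.1 and 5.00 on the general arrays (log2 difference 4.17, adjusted p = 3.39e-05). Its means were at most 7.75 in the embryo and the endosperm regions, so that on these arrays it was bright only in the chalazal seed coat among the compartments. BGLU40 read 2783 and 976 on the chalazal arrays and 22.4 and 10.5 on the general arrays (log2 difference 5.13, adjusted p = 2.39e-05), while BGLU44 read 225 and 372 on the chalazal arrays and 2072 and 2633 on the general arrays (log2 difference -2.88, adjusted p = 3.57e-05). BGLU44 was brightest in the peripheral endosperm, with a mean of 16964.

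Several short lists held 1 or 2 calls, where 8.25% of all tested probe sets were called higher and 8.17% lower. With so few members these counts show no direction for a list. Called higher were HCT, an acyltransferase of phenylpropanoid and lignin synthesis and the 1 tested gene of its list (log2 difference 1.38), EIN3, the transcription factor of ethylene signalling and 1 of 2 tested hormone genes of its list (1.30), and the chaperone Hsp70-2, the 1 tested heat shock gene (1.33). The histone gene HTB1 (1.21) was the 1 called of 10 cell cycle and histone genes, and the dehydration-related LEA18 and COR47 (2.27 and 1.87) were the 2 called of 5 late embryogenesis abundant genes. Of 3 tested glucosinolate genes AOP3, an enzyme of glucosinolate synthesis, was called lower (-2.30), and GTR2 was called higher. Hsp70-2 read 15318 and 22122 on the chalazal arrays and 8207 and 6492 on the general arrays (adjusted p = 0.000617), and its call held when any 1 of the 4 arrays was left out. The calls of HCT and EIN3 did not hold without chalazal array 2 (adjusted p = 0.102 and 0.0896), those of HTB1, COR47 and AOP3 without chalazal array 1 (0.13, 0.163 and 0.158), and that of LEA18 without chalazal array 2 (0.0955). Calls were also lost without general array 1 for HCT (0.162), HTB1 (0.0599) and AOP3 (0.0782), without general array 2 for EIN3 (0.0871), HTB1 (0.0829), LEA18 (0.0628) and COR47 (0.0643), and without chalazal array 1 for HCT (0.0769). NAC014 and the phloem regulator OPS were not called, with log2 differences of 1.98 (adjusted p = 0.0645) and 1.63 (0.119).

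**Figure D3:**
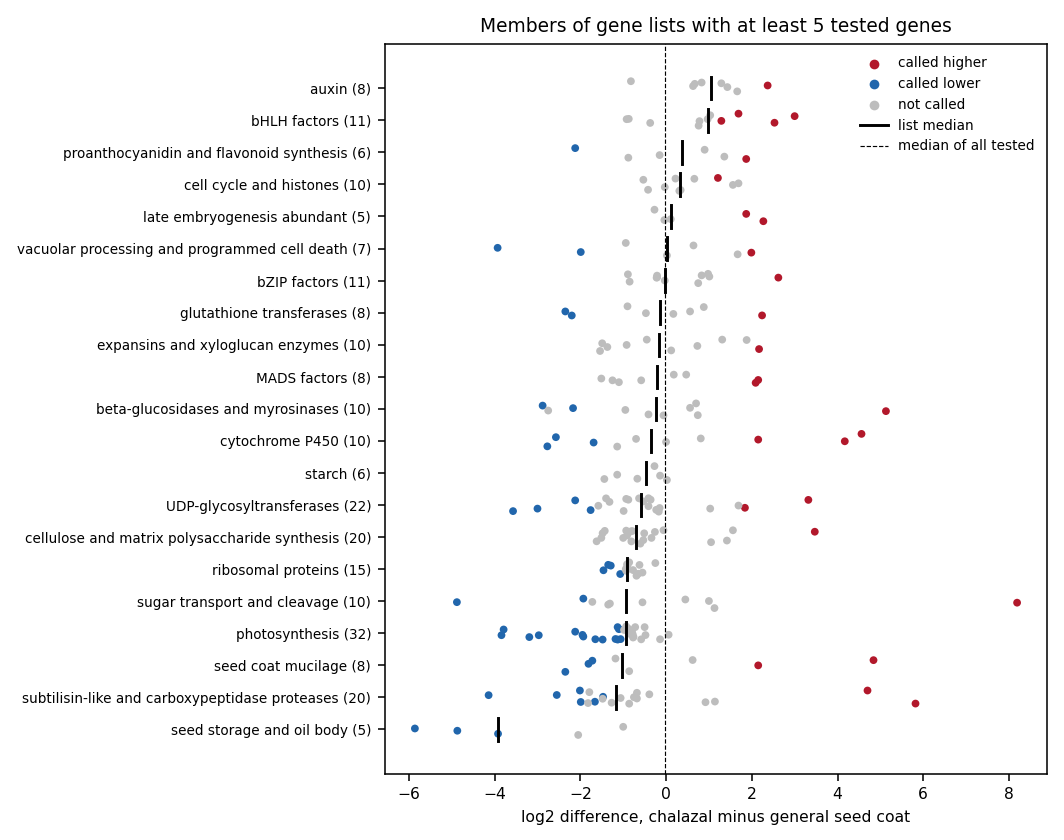
Log2 difference, chalazal minus general seed coat, of each tested member of the gene lists with at least 5 tested genes (their number in brackets), with called members in colour, the list median as a bar and the median of all tested probe sets as a dashed line. The seed storage, protease and mucilage lists have the lowest medians. SWEET10 and BGLU40 each lie far to the right of their list's other members, as do scpl31 and SBT4.13 together in the protease list.

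Single genes of small secreted defence proteins were also called in both directions. LCR68, of the cysteine-rich defensin-like family, read 12279 and 15068 on the chalazal arrays and 188 and 100.2 on the general arrays (log2 difference 6.32, SE 0.38, adjusted p = 9.29e-08). THI2.1, a thionin with antimicrobial activity, read 29.8 and 12.4 on the chalazal arrays and 499 and 904 on the general arrays (log2 difference -3.75, SE 0.58, adjusted p = 0.00026). These were the 2 called of 4 tested genes, and LCR69, of the same family as LCR68, gave 8760 and 7251 on the chalazal arrays and 12522 and 9432 on the general arrays with no call (log2 difference -0.45, adjusted p = 0.174). Among all tested probe sets 8.25% were called higher and 8.17% lower, and lists of 4 genes are too small to show a direction. MT1C, a metallothionein of metal binding, read 6822 and 6284 on the chalazal arrays and 234 and 236 on the general arrays (log2 difference 4.62, SE 0.46, adjusted p = 3.83e-06). GTR2, a glucosinolate transporter, and ZIP6, of a family of metal ion transporters, were the 2 called of 4 tested genes of nutrient transport, with log2 differences of 2.84 and 2.15. GTR2 lost its call without chalazal array 1 (adjusted p = 0.0501) and general array 2 (0.0979), and ZIP6 without any 1 of the 4 arrays (0.057 to 0.0738).

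Photosynthesis genes fell in the chalazal region. Of 12 tested nuclear photosynthesis genes 10 were called lower and 0 higher in limma (11 and 0 at an unadjusted p under 0.05), with a median log2 difference of -1.94. The share called lower over all tested probe sets was 8.17%. PRK, the phosphoribulokinase of the Calvin cycle, read 110 and 472 on the chalazal arrays and 5864 and 2448 on the general arrays (log2 difference -3.84, SE 0.50, adjusted p = 4.32e-05). PSAN, a subunit of photosystem I, read 23.4 and 66.5 on the chalazal arrays and 1349 and 723 on the general arrays (log2 difference -3.79, SE 0.49, adjusted p = 3.79e-05). PSAE-1, a further photosystem I subunit, and LHCB4.2, a light-harvesting protein of photosystem II, had log2 differences of -3.19 and -2.97. RCA, the Rubisco activase, and LHCB4.3 were the 2 nuclear genes not called, at 0.06 and -0.78.

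Plastid-encoded genes had a smaller median difference. Of 69 tested across all functions, 27 were called lower (39.1%) and 0 higher in limma (59 and 0 at an unadjusted p under 0.05), and all 69 had a difference below 0, with a median of -0.93. Over all tested probe sets 8.17% were called lower. Plastid genes are transcribed from 1 small genome and are not independent of each other. AtpB, a subunit of the plastid ATP synthase, had the lowest value, with 1879 and 2101 on the chalazal arrays and 6540 and 6117 on the general arrays (log2 difference -1.65, adjusted p = 5.2e-05). The 15 tested ribosomal protein genes with a named probe set were all plastid-encoded, with 4 called lower, and this count was 8 without chalazal array 1 and 2 without general array 1.

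Seed storage and oil body genes were lower as well, with 3 of 5 tested called lower, 0 higher in limma (4 and 0 at an unadjusted p under 0.05) and a median of -3.92. This is a list of few members, and 8.17% of all tested probe sets were called lower. OLEO3, an oleosin that coats oil bodies, read 143 and 621 on the chalazal arrays and 14012 and 6893 on the general arrays (log2 difference -4.87, SE 0.44, adjusted p = 1.21e-06). AT4G36700 read 68.4 and 284 on the chalazal arrays and 14849 and 7148 on the general arrays (log2 difference -5.86, SE 0.40, adjusted p = 1.58e-07). In both genes general array 1 was above general array 2, and the chalazal arrays lay far below both. AT3G01570, the third called member, was at 6.48 and 6.63 on the chalazal arrays and 668 and 453 on the general arrays (log2 difference -3.92, adjusted p = 2.55e-06).

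Storage and photosynthesis genes were brighter still in the embryo and in the peripheral and micropylar endosperm. OLEO3 had a mean of 35330 in the embryo proper and 37803 in the peripheral endosperm, and PRK 16432 and 13403. Of the 2 embryo markers with a probe set, OLEO3 was lower in the chalazal coat, and YAB3, which read 2075 and 2128 in the embryo proper, was dim in both coat regions, with 22.1 and 11.3 on the chalazal arrays and 51.8 and 38.3 on the general arrays. Their summed intensity was 165 and 632 on the chalazal arrays and 14060 and 6931 on the general arrays. Of 4 endosperm markers 2 were tested. AT1G50650, which read 13770 and 16320 in the peripheral endosperm, gave 2.97 and 178 on the chalazal arrays and 834 and 745 on the general arrays (log2 difference -3.26, adjusted p = 0.00288, and 0.0689 without chalazal array 1), and SWEET11 was not called. The 4 summed to 1056 and 1306 on the chalazal arrays and 1394 and 1303 on the general arrays. Every probe set read above 0 on every array, so a reading above 0 does not show that a marker's RNA was present. The part of embryo or endosperm RNA in the general seed coat samples was not tested.

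The chalazal endosperm list had 1 gene with a probe set, AGL28, which was too dim to be tested. It read 32.4 and 1.41 on the chalazal arrays and 3.04 and 116 on the general arrays, and 79.1 and 31.8 on the chalazal endosperm arrays, so it did not mark that tissue here.

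**Figure D4:**
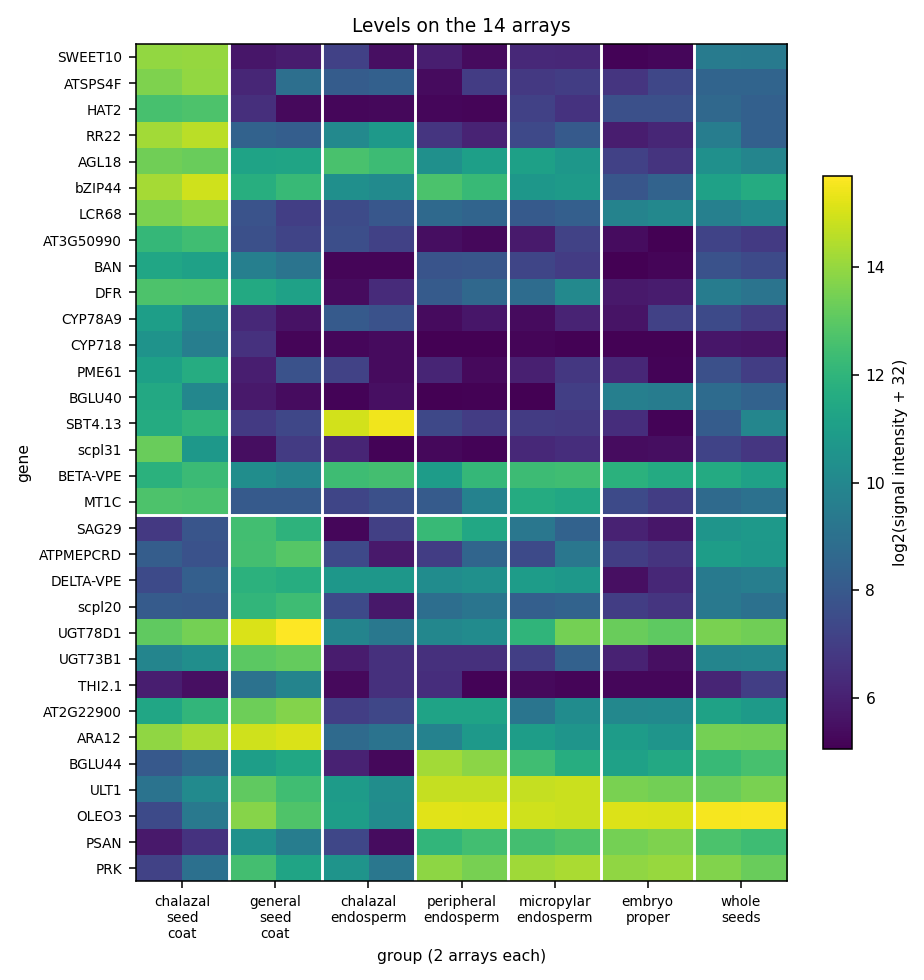
Log2(signal intensity + 32) of 32 named or list genes on all 14 arrays, in 7 groups of 2, with the chalazal seed coat at the left and genes with a higher mean there above the white line. SWEET10, HAT2 and CYP718 are bright in the chalazal seed coat columns alone among the compartments, SBT4.13 is brightest in the chalazal endosperm, and OLEO3, PSAN and PRK are bright in the embryo and in the peripheral and micropylar endosperm.

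Over the whole comparison, the probe sets called higher in the chalazal seed coat had their highest mean there in 718 cases (58.9%), in the chalazal endosperm in 284 (23.3%) and in the other compartments in the rest. Those called lower had their highest mean in the general seed coat in 645 cases (53.4%), in the embryo proper in 243 (20.1%), in the peripheral endosperm in 184 (15.2%) and in the chalazal endosperm in 26 (2.15%). For all tested probe sets the shares were 16.6% for the chalazal seed coat, 17.8% for the general seed coat, 24.1% for the chalazal endosperm, 20.4% for the embryo proper and 11% for the peripheral endosperm. A called probe set cannot have its highest mean in the region where it is lower, so these shares are a description. Relative to the chalazal seed coat mean, the higher calls had a median level of 31.4% and 28.3% on the chalazal endosperm arrays. The medians were 18.3% to 24.7% on the arrays of the embryo and the other endosperm regions. On the general seed coat arrays they were 17% and 15.4%. Relative to the general seed coat mean, the lower calls had a median level of 22.8% and 20.0% on the chalazal endosperm arrays, close to the 19.2% and 22.1% on the chalazal seed coat arrays, while the arrays of the embryo and the other endosperm regions had medians of 40.8% to 53.1%.

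**Figure D5:**
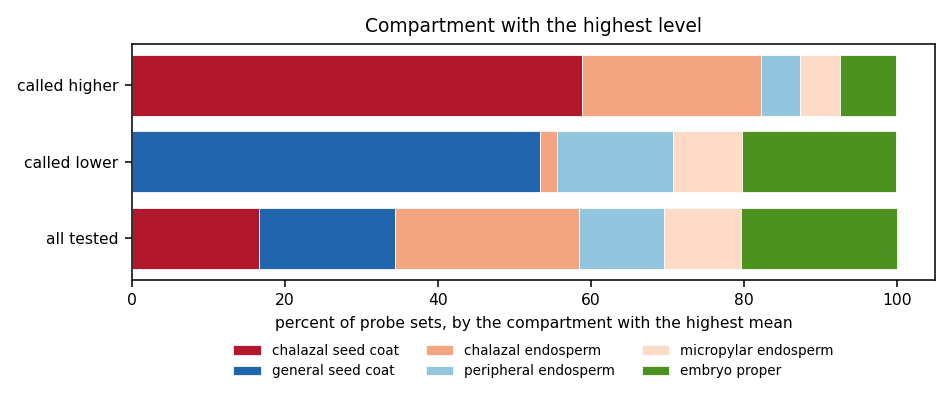
Percent of probe sets by the compartment that holds their highest mean, for the 1218 called higher in the chalazal seed coat, the 1207 called lower and all 14765 tested. The chalazal endosperm holds 23.3% of the higher calls, 2.15% of the lower calls and 24.1% of all tested probe sets.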

How the data were processed

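Signal intensities of ATH1 arrays, deposited by the authors as a linear table, were made with GCOS per the submitters' processing notes. The sources used here do not give the version of GCOS. On each array the 2% trimmed mean of the deposited values was 500, as found from the file. Probe-level data and detection calls were not used here. The labels name the replicates as biological, and groups were taken from the labels.

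Of 22810 probe sets, 64 controls were left out and 14765 of the 22746 others (64.91%) were tested. Values were changed to log2(intensity + 32) and fitted by lmFit and eBayes (trend = TRUE) of limma 3.58.1, run in R 4.3.3, with 7 group means and no block. The Benjamini-Hochberg adjustment covered all tested probe sets. The fit was checked on simulated data, with 50 brighter probe sets changed at each size. It recovered 6% of log2 differences of 1, 74% of those of 2 and 100% of those of 3 and 4, with 3 false calls. A gene that was not called may therefore still differ.

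GEO's platform annotation named 1 gene for 13513 probe sets, several for 503 and none for 8730. Of the single names 13436 were found in the RefSeq TAIR10.1 gene table, which updated symbols, and 77 were not. Where a gene had several probe sets the brightest stood for it.

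Members and the 49 gene lists were chosen with earlier results of these data known. Of the lists, 42 had tested genes. Named genes are the 15 largest called differences in each direction, among probe sets of a single gene whose arrays do not overlap, and up to 4 called members of a list. Added after the values were seen were genes with a symbol among the 100 largest in each direction, runs of neighbouring genes, and the removal of 11 false list matches. Other pseudocounts, filters, scalings, array sets, thresholds, a replicate block and leaving out each array were tried. No sequence was used here.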

Additional observations from a re-analysis of the deposited data

How the results depend on the processing

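Of 1725 pairs of a named gene and an alternative, 1605 kept direction and call, 120 lost the call and 0 reversed. A pseudocount of 1 cost 16 named genes their call, among them AT5G49180 (adjusted p = 0.0517), AT1G56100 (0.0728), GTR2 (0.138), ZIP6 (0.0552), GID1A (0.0569), EXPA9 (0.122) and LEA18 (0.158), and a fit of the 4 seed coat arrays alone cost EXPA9 (0.0619), AOP3 (0.0606) and HTB1 (0.0715) theirs. When calls needed a log2 difference of 2 or more and an adjusted p below 0.01, 593 probe sets were called higher and 479 lower. Leaving out 1 of the 4 seed coat arrays gave 706 to 945 higher and 745 to 888 lower calls, with a share of higher calls between 47.1% and 55.9%. Under the other alternatives for scaling, filter, pseudocount and array set, the counts stayed within 1.5 times, from 883 (pseudocount of 1) to 1332 (pseudocount of 100) higher and from 909 to 1313 lower. The main fit did not pair samples by replicate number. The deviations of arrays of the same number correlated at 0.02 over 2 pairs. This compares 1 difference in each group, so it cannot show whether samples of the same number were paired. A fit with the number as a block called 1152 higher and 1155 lower and cost 0 named genes their call. A search of promoters for motifs was planned and not run. With 2 arrays a group, dim probe sets are limited by the background of the array, and many loci have no named probe set.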

Other observations

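Some called genes lay next to each other on a chromosome, a pattern looked for after the values had been seen. With protein-coding genes in RefSeq TAIR10.1 order and called genes at most 3 positions apart, 5 runs of at least 3 genes held 22 of 609 nuclear genes called higher in the chalazal seed coat, and 5 runs held 16 of 587 called lower. These counts rest on single arrays. The higher runs were 2, with 10 genes, without chalazal array 1, 2 (12 genes) without chalazal array 2, 4 (17 genes) without general array 1 and 3 (13 genes) without general array 2. The lower runs were 1, with 3 genes, without chalazal array 1 or without general array 1, 2 (7 genes) without chalazal array 2 and 3 (10 genes) without general array 2. In the largest run, AT4G29570 to AT4G29650, 7 of 8 tested genes were called higher, with log2 differences between 3.88 and 7.64, and all 7 stayed called when any 1 of the 4 seed coat arrays was left out. AT4G29640, its member with the largest difference, read 11236 and 18438 on the chalazal arrays and 16.2 and 76.1 on the general arrays. The 1 uncalled gene in this span, AT4G29590, read 410 and 305 on the chalazal arrays and 307 and 423 on the general arrays (log2 difference -0.03). In the largest run in the other direction, AT1G28590 to AT1G28650, 4 genes were called lower, between -4.22 and -2.44, a run found without chalazal array 2 or general array 2 but not without chalazal array 1 or general array 1, and AT1G28630 within the same span was called higher (log2 difference 1.65, adjusted p = 0.0458 in limma). How often such runs occur among other genes was not tested, nor was sequence likeness between neighbours, which could let probe sets read each other's transcripts.

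UBC31, a ubiquitin-conjugating enzyme, read 705 and 648 on the chalazal arrays and 3.38 and 3.92 on the general arrays (log2 difference 4.31), with a mean of 4166 in the chalazal endosperm. TET5, a tetraspanin membrane protein, read 2016 and 1816 on the chalazal arrays and 25.7 and 56.2 on the general arrays (log2 difference 4.77). ULT1, a developmental regulator that counters repression by polycomb proteins, read 524 and 1114 on the chalazal arrays and 8734 and 5563 on the general arrays (log2 difference -3.13, adjusted p = 3.53e-06 in limma), with means of 27482 in the peripheral and 28613 in the micropylar endosperm. NCRK, a receptor-like kinase, read 62.5 and 79.2 on the chalazal arrays and 1714 and 1901 on the general arrays (log2 difference -4.16). SBTI1.1, a subtilase, and iqd15 and iqd21, of a calmodulin-binding family, were called lower, with log2 differences of -3.05, -2.94 and -3.07. Of the 4 lower UDP-glycosyltransferases UGT76E2 had a log2 difference of -3.57. TET15 (-3.04) and LPR1 (-3.21) were called lower too, and both lost the call without chalazal array 2 (adjusted p = 0.0593 and 0.0565) and without general array 1 (0.197 and 0.0564), TET15 also without chalazal array 1 (0.0723). The 6 tested genes of starch metabolism had 0 calls in either direction in limma (0 higher and 3 lower at an unadjusted p under 0.05), with log2 differences between -1.44 and 0.02.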
